A study of Mus musculus with 19 samples.

Results

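Cirbp and Rbm3 are the genes of the cold-inducible RNA-binding proteins, here followed in RNA of the mouse locus coeruleus. Their rows were taken from the count table by gene symbol and gave 2 genes of 14443 in the table, each measured in all 19 libraries. The 2 genes were chosen with earlier results of these data known, so their p-values and ranks are not those of genes picked blind. The locus coeruleus is a small brainstem nucleus of noradrenergic neurons. The series asked how sleep loss and the loss of calcineurin change its transcripts, since CnB1, encoded by Ppp3r1, is the regulatory subunit of that calcium-activated phosphatase. The 4 libraries of WT_S6 come from control mice, labelled ABC-Ctrl, that had slept normally, and the 5 of WT_SD6 from control mice deprived of sleep over 6 h. Mice labelled ABC-CnB1KO gave the 5 libraries of CnB1KO_S6 after sleep and the 5 of CnB1KO_SD6 after deprivation. Tissue was taken 4 weeks after injection of AAV-hSyn-Cre, a virus that carries the recombinase Cre behind a neuronal promoter, and the labels name this injection for mice of both genotypes. Deletion by this Cre is limited to neurons that took up the virus, while the dissected tissue also holds glia, vessels and neighbouring neurons. The sources used here name no age, strain or sex. The libraries of a group are biological replicates by their labels, and each p-value measures the spread between them.

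Both proteins carry 1 RNA recognition motif and a tail rich in arginine and glycine. Their transcripts and proteins rise when cells are cooled by a few degrees and fall when they are warmed, in culture as well as with the daily rhythm of body temperature. Through their binding to other RNAs they take part in the choice of poly(A) sites, in the amplitude of clock gene expression and in translation, and Rbm3 is known for the protection of synapses in cooled brain. In cortex, a fall of Cirbp with sleep loss has been linked to brain temperature, which was not measured here.

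Cirbp (ENSMUSG00000045193.13) lies on the forward strand of chromosome 10 at chr10:80165985-80172786 in GRCm38. The annotation lists 7 transcripts for it, 2 of them protein-coding, 1 subject to nonsense-mediated decay and 4 with a retained intron. RefSeq gives 2 promoter windows for Cirbp, each of 300 bases that reach across a start site. The first is shown in part, because it holds the mild-cold response element described for this gene (TCCCCGCC, in capitals). These are the first 100 bases of that window, chr10:80167589-80167688, forward strand, RefSeq GRCm38.p6:
Cirbp promoter: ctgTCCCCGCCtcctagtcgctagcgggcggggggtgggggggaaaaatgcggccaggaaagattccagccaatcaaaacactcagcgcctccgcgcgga
The element begins 247 bases before the start site. Searched on both strands, it is held by 1768 of 32851 promoter windows of 300 bases, or 5.38%. The core of the heat shock element, GAANNTTC, which reads the same on both strands, is held by 7.86% of them and has no match in either Cirbp window. Rbm3 (ENSMUSG00000031167.16) lies on the reverse strand of the X chromosome at chrX:8138975-8145880 in GRCm38. Its 11 annotated transcripts comprise 6 protein-coding ones with spliced lengths of 969 to 2792 bases, 2 subject to nonsense-mediated decay, 2 with a retained intron and 1 processed transcript.

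The count of Rbm3 carries uncertainties from an overlapping gene and a pseudogene. For Cirbp, a search for overlapping genes and pseudogenes is not reported here. Its 5′ end overlaps the antisense gene Rbm3os by 452 bases, and the libraries were made without strand marks, so reads there cannot be assigned to a strand. Rbm3os was low, between 0 and 1.3 FPKM (fragments scaled by gene length and sequencing depth). A processed pseudogene, Rbm3-ps, lies on chromosome 1 and had 1.08 to 4.18 FPKM, and the sources used here do not say how reads that match both copies were placed. Among the neighbours, 1600002K03Rik begins 157 bases after Cirbp, and Wdr13 lies 6082 bases from Rbm3. Xist was at most 0.0387 FPKM and the Y-linked Ddx3y at least 23.5 FPKM in all 19 libraries, so the X-linked Rbm3 was read in male tissue throughout.

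Library totals were 3887298 to 7903253 counts. Cirbp had 258 to 552 counts and Rbm3 161 to 397 counts per library, for a counting error of 4.26 to 6.23% and 5.02 to 7.88% of the value. Over the 19 libraries the log2 count rose with the log2 library total by a slope of 0.82 (SE 0.10) for Cirbp and 0.96 (SE 0.21) for Rbm3, where 1 is proportional counting. The 10 noradrenergic markers, among them Th and Dbh, summed to 746 to 1830 CPM (counts scaled to a common library total), so the labelled nucleus was present in every library. Cerebellar granule cell markers, from tissue that borders it, summed to 411 to 2460 CPM. Ppp3r1, the targeted gene, was 1.2-fold lower in CnB1KO averaged over sleep states (log2 change -0.26, SE 0.04, adjusted p = 0.00758), and after sleep its change was -0.32 by counts (adjusted p = 0.104). These counts do not show how much of the neuronal protein was lost.

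Cirbp fell with sleep deprivation in both genotypes. In WT_S6 its 4 libraries had 76.8, 77.4, 79.2 and 85.1 CPM (scaled with TMM, edgeR's trimmed mean of M values), and in WT_SD6 the 5 libraries had 52.3, 55.2, 55.7, 56.8 and 59.7 CPM. All deprived control libraries lay below all sleeping ones, with a gap between the groups wider than the range within either. For this and all later statements on overlap between groups, the share of all genes that separate likewise was not counted. The mean went from 79.6 ± 3.81 (SD, n = 4) to 56.0 ± 2.67 (SD, n = 5), a 1.42-fold fall with a log2 change of -0.51 (SE 0.07, 95% confidence interval -0.65 to -0.37, adjusted p = 0.000867 by edgeR's quasi-likelihood test over all genes). A gene is here said to have passed with an adjusted p under 0.05. Of all genes, 0.367% passed as lower and 0.775% as higher in this comparison, and by p Cirbp was number 8 of 14443.

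In CnB1KO_S6 the 5 libraries had 59.5, 59.7, 65.8, 71.2 and 75.9 Cirbp CPM, and in CnB1KO_SD6 they had 42.7, 47.6, 49.1, 50.7 and 51.4 CPM. Again the groups did not overlap. The mean went from 66.4 ± 7.16 (SD, n = 5) to 48.3 ± 3.45 (SD, n = 5), a 1.37-fold fall (log2 change -0.46, SE 0.07, 95% confidence interval -0.60 to -0.32, adjusted p = 0.00163), where 0.228% of genes passed as lower and 0.464% as higher. The test of the difference between the genotypes' responses gave 0.05 on the log2 scale (95% confidence interval -0.15 to 0.25, adjusted p = 1). In that test 0% of genes passed with edgeR (287 had an unadjusted p under 0.05), 1 gene passed with DESeq2 and 0 with limma voom. The interval does not show that the genotypes respond alike. Averaged over genotypes the fall was 1.4-fold (log2 change -0.48, SE 0.05, adjusted p = 7.5e-06), in a comparison where 2.13% of genes passed as lower.

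The knockout was also lower in Cirbp, by less. All 5 CnB1KO_S6 libraries lay below all 4 WT_S6 libraries, with a log2 difference of -0.27 (SE 0.07, 1.2-fold, adjusted p = 0.216) that did not pass, as for all but 0.0277% of genes on that side. By CPM all 5 CnB1KO_SD6 libraries lay below all 5 WT_SD6 libraries, narrowly, with a highest value of 51.4 against a lowest of 52.3. By FPKM these 2 groups overlapped, with 41.4 for the highest of CnB1KO_SD6 and 41.3 for the lowest of WT_SD6. The log2 difference by counts was -0.21 (SE 0.07, 1.16-fold, adjusted p = 0.183), where 0.0554% of genes passed as lower. Averaged over sleep states Cirbp was 1.18-fold lower in CnB1KO (log2 change -0.24, SE 0.05, adjusted p = 0.0159), and 1.21% of genes passed as lower. In descending order the group means thus ran WT_S6, CnB1KO_S6, WT_SD6 and CnB1KO_SD6. The middle neighbours overlap, with 59.5 CPM for the lowest library of CnB1KO_S6 and 59.7 CPM for the highest of WT_SD6. The averaged genotype call ended with an oligodendrocyte marker score as covariate (-0.24, adjusted p = 0.245) and without WT_S6 library 4, which has the highest Cirbp (-0.22, adjusted p = 0.0523). The shallowest library, CnB1KO_S6 library 13, has the highest Cirbp of its group by TMM-scaled CPM (75.9). By FPKM it has 55.2, below the 57.5 of library 14.

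Markers of other cells also differed between the genotypes. Averaged over sleep states, 5 of 11 endothelial, 3 of 12 oligodendrocyte and 2 of 12 microglia markers passed as higher in CnB1KO and 0 as lower, beside 1.88% of all genes that passed as higher. In the same comparison 10 of 10 granule cell markers did not pass at a median log2 difference of -0.61. The endothelial score, the mean log2 CPM of its markers, averaged 5.3 and 5.36 in the WT groups and 5.63 and 5.62 in the CnB1KO groups. The part of endothelial and microglia markers in the genotype difference of Cirbp was not tested. In bulk tissue fewer cells of a type and less RNA per cell cannot be told apart.

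**Figure D1:**
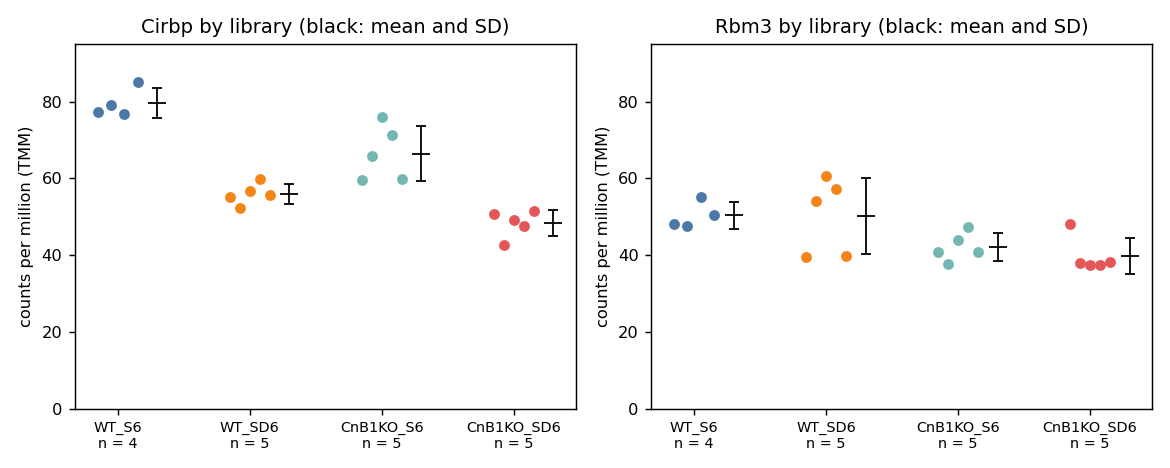
TMM-scaled CPM (y axis, from 0) of Cirbp (left) and Rbm3 (right) in each of the 19 libraries by group (x axis), with the mean and SD in black. Cirbp is lower in both SD6 groups with no overlap within a genotype, while the Rbm3 values of WT_SD6 lie on both sides of those of WT_S6, at 39.6 and 39.7 and from 54.1 to 60.5.

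The count of Rbm3 did not follow that of Cirbp. In WT_S6 it was 47.5, 48.2, 50.4 and 55.2 CPM. In WT_SD6 it was 39.6, 39.7, 54.1, 57.1 and 60.5 CPM, which places 2 libraries below the sleeping range, 2 above it and 1 inside it. The means were 50.4 ± 3.48 (SD, n = 4) and 50.2 ± 9.91 (SD, n = 5), with a log2 change of -0.01 (SE 0.12, 95% confidence interval -0.25 to 0.24, adjusted p = 0.991). A fall of the size seen for Cirbp lies outside that interval.

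In CnB1KO_S6 the Rbm3 count was 37.6, 40.7, 40.7, 43.9 and 47.4 CPM, and in CnB1KO_SD6 it was 37.3, 37.5, 37.8, 38.2 and 48.1 CPM. These groups overlap, with 1 deprived library above all sleeping ones. The log2 change was -0.08 (SE 0.11, 95% confidence interval -0.32 to 0.16, adjusted p = 0.976). The difference of the response between genotypes did not pass (-0.07, 95% confidence interval -0.41 to 0.27, adjusted p = 1), an interval too wide to show that it is alike. Against control mice the knockout was lower after sleep without overlap (-0.26, SE 0.12, 1.2-fold, adjusted p = 0.47) and lower after deprivation with overlap (-0.33, SE 0.11, 1.26-fold, adjusted p = 0.208). Averaged over sleep states the difference was -0.30 (SE 0.08, 1.23-fold, adjusted p = 0.0543), close to the threshold, and it passed with DESeq2 (adjusted p = 0.025). Of 32 alternatives, 10 gave a call and 22 did not, with adjusted p from 0.00295 to 0.692.

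By FPKM, the length-scaled measure that the authors deposited beside the counts, Rbm3 looked different. FPKM came in 4 tables, 1 per group, with 59380 lines for WT_S6 and 62533 to 62551 for the other groups, so a difference between groups assumes that the tables were made in the same way. Rbm3 had 45.8, 48.9, 50.1 and 56.5 FPKM in WT_S6 and 32.3, 35.0, 39.7, 42.9 and 45.9 FPKM in WT_SD6. Of the 5 deprived libraries 4 lay below all sleeping ones, and the highest of them sat just above the lowest of the sleeping group. In CnB1KO_S6 it had 35.0, 35.3, 35.6, 35.7 and 41.0 FPKM, and in CnB1KO_SD6 25.2, 28.1, 28.5, 29.5 and 32.7 FPKM, with no overlap. Averaged over genotypes Rbm3 FPKM fell 1.27-fold with deprivation (log2 change of FPKM + 1 -0.35, SE 0.06, limma adjusted p = 0.00418), where 1.01% of 17362 tested genes passed as lower. Averaged over sleep states it was 1.35-fold lower in CnB1KO (-0.44, SE 0.06, adjusted p = 0.00295), where 0.426% passed as lower.

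Within a genotype the change of Rbm3 FPKM was -0.36 in WT (SE 0.09, adjusted p = 0.103) and -0.33 in CnB1KO (SE 0.09, adjusted p = 0.129), and neither passed. Both passed with a cerebellar granule cell score as covariate, a setting chosen after seeing the data (-0.35, adjusted p = 0.00714, and -0.30, adjusted p = 0.0169). Cirbp gave nearly the same answer on both scales, with FPKM changes of -0.48 in WT (adjusted p = 0.00221) and -0.39 in CnB1KO (adjusted p = 0.00599). In these comparisons 0.0922% and 0.109% of genes passed as lower by FPKM. Set per length, Cirbp had the higher mean level in each group. In WT_S6 it had 62.2 ± 3.6 FPKM (SD, n = 4) against 50.3 ± 4.5 (SD, n = 4) for Rbm3, and in WT_SD6 44.4 ± 1.95 (SD, n = 5) against 39.2 ± 5.58 (SD, n = 5). In CnB1KO_S6 it had 51.3 ± 5.16 FPKM (SD, n = 5) against 36.5 ± 2.53 (SD, n = 5), and in CnB1KO_SD6 38.9 ± 2.97 (SD, n = 5) against 28.8 ± 2.7 (SD, n = 5). Over single libraries the FPKM ratio of Cirbp to Rbm3 ran from 0.993 to 1.64.

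The gap between the measures is carried by the quotient of CPM (here without TMM) and FPKM, which has the dimension of a length in kilobases. This quotient was looked at after the difference had been seen. For Cirbp it was 1.22 to 1.31 kilobases in all 19 libraries. For Rbm3 it was 0.976, 1, 1 and 1.04 kilobases in WT_S6 and 1.16, 1.24, 1.30, 1.32 and 1.36 in WT_SD6. It was 1.08, 1.15, 1.16, 1.16 and 1.17 in CnB1KO_S6 and 1.30, 1.32, 1.35, 1.46 and 1.49 in CnB1KO_SD6. Deprived libraries lay above all sleeping ones in both genotypes, and sleeping knockout libraries lay above all sleeping control ones.

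Tested across 12523 genes with limma on the log2 quotient, Rbm3 rose 1.27-fold with deprivation in WT (log2 change 0.34, SE 0.05, adjusted p = 0.0171) and had the smallest p of all genes. Only 0.016% of genes passed as higher there, that is Rbm3 and Dnhd1. In CnB1KO the change was 0.27 (SE 0.04, 1.21-fold, adjusted p = 0.0648), the second smallest p after Trio, and without WT_SD6 library 10 it passed (adjusted p = 0.0181). There 0% of genes passed with limma, while 580 had an unadjusted p under 0.05. Averaged over genotypes Rbm3 again came first (0.31, SE 0.03, 1.24-fold, adjusted p = 0.000426), and the genes that passed as higher, 0.024% of those tested, were Rbm3, Gatm and Trio. In size, 12 genes rose more than Rbm3 in WT and 25 in CnB1KO.

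The same quotient of Rbm3 was 1.14-fold higher in CnB1KO after sleep (0.19, SE 0.05, adjusted p = 0.562) and 1.11-fold higher averaged over sleep states (0.15, SE 0.03, adjusted p = 0.247), and neither passed. For Cirbp the changes of the quotient were -0.02 in WT and -0.05 in CnB1KO, and did not pass. The rise of Rbm3 in WT was 0.34 with each library centred on its own median (adjusted p = 0.061) and 0.32 to 0.37 without any 1 library, passing in 14 of those 19 fits. Without WT_S6 library 1, 3 or 4 or WT_SD6 library 8 or 9 its adjusted p was 0.0616 to 0.107. The rise averaged over genotypes passed in each of these settings. The sources used here do not say what length enters the FPKM of a gene with several transcripts, and neither deposited measure is given per transcript. Whether transcript use, read placement against Rbm3-ps or Rbm3os, or the making of the tables moves the quotient was not tested. Rbm3-ps itself had 3.28 ± 0.639 FPKM (SD, n = 4) for WT_S6 and 1.96 ± 0.223 FPKM (SD, n = 5) for WT_SD6. For the knockout it had 2.09 ± 0.488 FPKM (SD, n = 5) after sleep and 1.48 ± 0.317 FPKM (SD, n = 5) after deprivation.

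**Figure D2:**
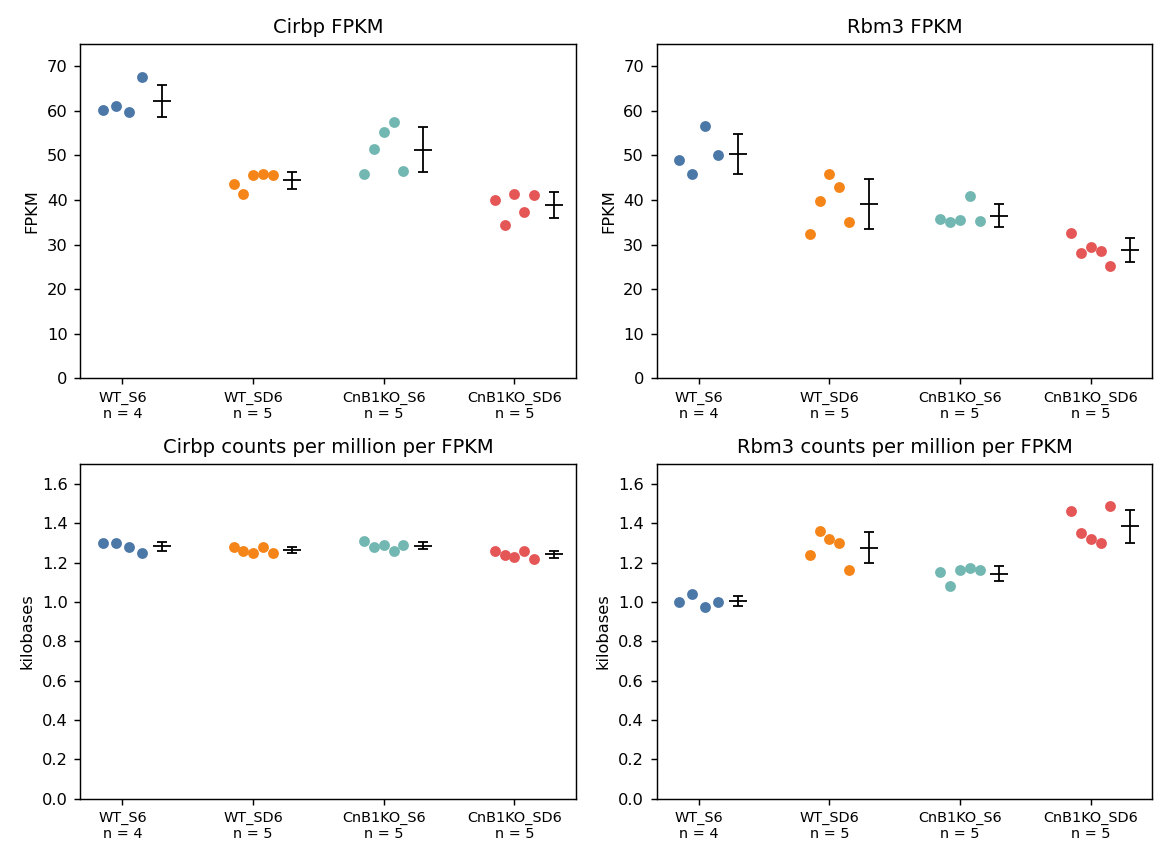
FPKM (top) and CPM per FPKM in kilobases (bottom) of Cirbp (left) and Rbm3 (right) by library and group, all axes from 0, mean and SD in black. The Cirbp quotient stays between 1.22 and 1.31, whereas that of Rbm3 is 0.976 to 1.04 in WT_S6 and reaches 1.49 in CnB1KO_SD6.

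**Figure D3:**
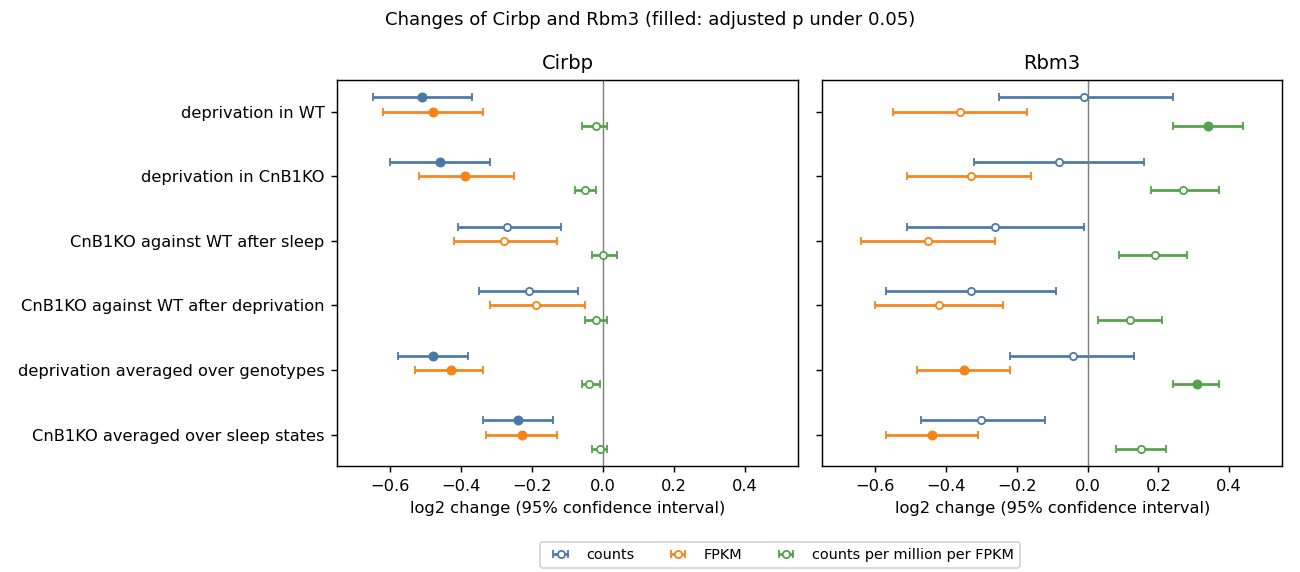
Log2 changes (x axis) with 95% confidence intervals in 6 comparisons (y axis) by counts (blue), FPKM (orange) and CPM per FPKM (green), filled where the adjusted p is under 0.05. The count and FPKM changes of Cirbp lie side by side, while in the deprivation comparisons those of Rbm3 are near 0 by counts and about -0.35 by FPKM.

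Because both genes are read in the same library, their ratio needs no scaling between libraries. In control mice there were 1.39 to 1.69 Cirbp counts per Rbm3 count after sleep and 0.94 to 1.4 after deprivation. Sleeping knockout mice had 1.46 to 1.75 of them and deprived knockout mice 1.05 to 1.34. The ranges overlap slightly in control mice and not in the knockout. The log2 ratio changed by -0.37 with deprivation in CnB1KO (exact permutation test, two-sided, p = 0.00794, the smallest that 5 against 5 libraries allow, adjusted p = 0.0317 over 4 comparisons). In WT it changed by -0.48 (exact permutation p = 0.0476, adjusted p = 0.0952) and did not pass. Between genotypes it differed by -0.01 after sleep (exact permutation p = 0.921) and by 0.10 after deprivation (exact permutation p = 0.46). From FPKM the changes with deprivation were only -0.12 in WT (exact permutation adjusted p = 0.487) and -0.05 in CnB1KO (exact permutation adjusted p = 0.603). With counts thinned to the lowest library total the change in CnB1KO was -0.33 (exact permutation adjusted p = 0.0635), and without any 1 library of these groups it was -0.41 to -0.32 and no longer passed (exact permutation adjusted p = 0.0635, the smallest that 4 against 5 libraries allow here).

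Whether the members vary together was read across libraries of the same sleep state, which hold both genotypes. Over the 9 S6 libraries their log2 CPM had Pearson's r = 0.77 (exact permutation p = 0.016, adjusted over 2 states p = 0.032) and Spearman's rho = 0.80 (exact permutation p = 0.0138), and r = 0.72 without the 2 libraries farthest from the median of Cirbp. Over the 10 SD6 libraries r was 0.61 (permutation p = 0.0572) and rho 0.81 (permutation p = 0.00748), with r = 0.47 without the 2 farthest. With the mean of each group taken out, r was 0.42 over S6 (exact permutation p = 0.257) and 0.28 over SD6 (permutation p = 0.441). With the groups' own means removed, the relation did not pass in either sleep state.

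Within the groups the Rbm3 level was set against cerebellar granule cell markers, a list of 10 genes such as Gabra6 and Cbln3. In each of the 4 groups the library with the highest marker score had the highest Rbm3. That was WT_S6 library 3 (score 7.39, mean log2 CPM) with 55.2 CPM, WT_SD6 library 8 (7.71) with 60.5, CnB1KO_S6 library 14 (7.10) with 47.4 and CnB1KO_SD6 library 16 (7.23) with 48.1. The 3 WT_SD6 libraries above 54 CPM had scores of 7.14 to 7.71, and those at 39.6 and 39.7 had 5.92 and 4.55. With group means taken out, r over the 19 libraries was 0.70 by CPM (permutation within groups, p = 0.00415, adjusted over 28 relations p = 0.0581) and rho 0.71 (adjusted p = 0.0451), with r = 0.66 without the 2 farthest libraries. By FPKM r was 0.79 (permutation adjusted p = 0.0171), and for the quotient 0.28 (permutation adjusted p = 0.558).

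For Cirbp r with the granule cell score was -0.10 (permutation p = 0.706). For the Rbm3 count, r was -0.58 with noradrenergic markers (permutation adjusted p = 0.197) and -0.69 with microglia markers (permutation adjusted p = 0.1). The granule cell score averaged 6.6 ± 0.75 (SD, n = 4) for WT_S6 and 6.53 ± 1.29 (SD, n = 5) for WT_SD6. For CnB1KO_S6 it averaged 5.97 ± 0.93 (SD, n = 5), and for CnB1KO_SD6 5.64 ± 1.29 (SD, n = 5). With this score as covariate the averaged genotype difference of Rbm3 was -0.20 in place of -0.30 (adjusted p = 0.097), while its deprivation change stayed at -0.01 in WT and that of Cirbp at -0.51 (adjusted p = 0.000321). How the borders of the dissection enter the Rbm3 values of single libraries was not tested.

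**Figure D4:**
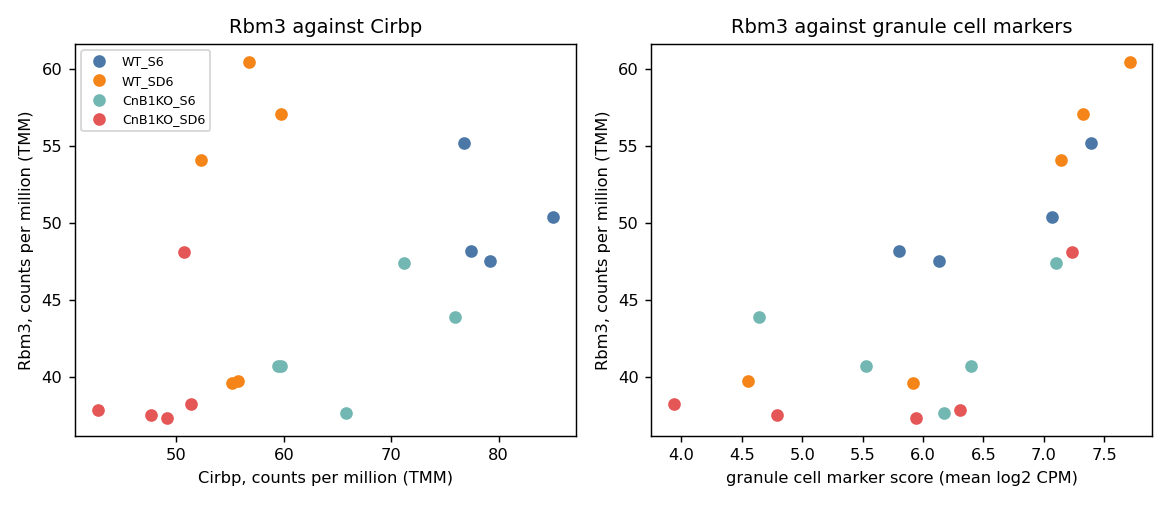
Rbm3 in TMM-scaled CPM (y axes) against Cirbp in the same unit (left) and against the mean log2 CPM of cerebellar granule cell markers (right), 1 point per library, coloured by group, with axes that do not start at 0. In each group the point farthest to the right in the second panel is also the highest, from 47.4 in CnB1KO_S6 to 60.5 in WT_SD6.

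Of 17 listed and measured cold-linked genes, 0 rose and 1, Cirbp, fell in each genotype. Of all genes, 0.367% passed as lower in WT and 0.228% in CnB1KO. Including Cirbp, 5 of the 17 had an unadjusted p under 0.05 in WT and 4 in CnB1KO, and 1 passed with DESeq2 and with limma voom in each. For this and the later lists, the share of all genes under that unadjusted cut with deprivation was not counted. The cold-linked list had a median log2 change of 0.04 in both against 0.00 in WT and -0.01 in CnB1KO for all genes. Clk1 and Clk4, kinases of splicing factors that act as temperature sensors, had changes of 0.11 and 0.07 in WT and of 0.14 and 0.05 in CnB1KO, none of which passed. Rtn3, a reticulon whose translation Rbm3 promotes, had -0.10 and -0.04. The splicing factor gene Srsf5 had 0.04 and -0.02, and Hnrnph1, whose protein takes part in splicing of the Rbm3 transcript, 0.09 and 0.05. Averaged over genotypes Mat2a, which encodes an enzyme that makes S-adenosylmethionine, rose 1.13-fold (0.18, SE 0.04, adjusted p = 0.0252), where 2.57% of all genes passed as higher. Without WT_S6 library 4 it was 0.17 (adjusted p = 0.0556). Of 7 measured temperature-gated channel genes (of 11 listed), 0 passed in either genotype with edgeR, DESeq2 or limma voom, and 2 in WT and 1 in CnB1KO had an unadjusted p under 0.05.

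Heat shock genes, the other arm of the temperature response, rose in part. Of 21 measured members 3 rose and 0 fell in each genotype, beside 0.775% of all genes that passed as higher in WT and 0.464% in CnB1KO. The median log2 change of the list was 0.12 in WT and 0.11 in CnB1KO, against 0.00 and -0.01 for all genes. At an unadjusted p under 0.05 the list held 10 genes in WT and 9 in CnB1KO. Hspa1b, which encodes an inducible Hsp70, had 4.41 ± 0.46 CPM (SD, n = 4) in WT_S6 and 10.4 ± 1.51 CPM (SD, n = 5) in WT_SD6, a 2.36-fold rise (adjusted p = 0.00709), and it rose 2.58-fold in CnB1KO (adjusted p = 0.00277). Its near-identical neighbour Hspa1a rose 1.81-fold in WT (adjusted p = 0.00394) and had a change of 0.45 in CnB1KO (adjusted p = 0.252), with reads between the pair of uncertain placement. Chordc1, an Hsp90 co-chaperone gene, rose 1.25-fold in WT, and in CnB1KO the small heat shock gene Hspb1 rose 1.77-fold and the Hsp40 gene Dnajb1 1.25-fold. In WT, Hspb1 had 0.61 (adjusted p = 0.106) and Dnajb1 0.21 (adjusted p = 0.13), and in CnB1KO Chordc1 had 0.16 (adjusted p = 0.0877). Of the 19 fits that leave out 1 library, Hspb1 passed in 17 for CnB1KO (adjusted p up to 0.0602 without CnB1KO_S6 11 or CnB1KO_SD6 18) and Dnajb1 in 18 (0.0528 without CnB1KO_SD6 18). Over all alternatives in WT, Chordc1 lost its call in 3 of 33 (adjusted p up to 0.371), Hspa1b in 1 of 32 (0.172) and Hspa1a in 2 of 32 (0.0703). In CnB1KO, Hspa1a gained a call in 3 of 32. The abundant chaperone genes Hspa8 (0.03 and 0.01) and Hsp90aa1 (0.03 and 0.02) did not pass.

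Clock genes, whose RNAs both proteins are known to bind, split. Of 21 measured members 2 rose and 2 fell in WT and 2 rose and 1 fell in CnB1KO, beside 0.775% higher and 0.367% lower of all genes in WT and 0.464% and 0.228% in CnB1KO. The median change of the list was 0.00 and -0.01, the same as for all genes. At an unadjusted p under 0.05 the list held 8 genes in WT and 4 in CnB1KO. Npas2, a partner of the clock activator, rose 1.5-fold and 1.53-fold, and Per1, a repressor that also follows stress signals, 1.33-fold and 1.29-fold. Dbp, a clock output gene, fell 1.37-fold in WT and 1.36-fold in CnB1KO. Per3 fell 1.29-fold in WT and had -0.29 in CnB1KO (adjusted p = 0.069). Of the 19 fits that leave out 1 library, Per1 passed in 17 for WT (not without WT_S6 1 or 4) and in 12 for CnB1KO (not without any 1 of the CnB1KO_S6 libraries, or CnB1KO_SD6 16 or 19). For WT, Per3 passed in 14 (not without WT_S6 2, 3 or 4 or WT_SD6 9 or 10) and Npas2 in 17 (not without WT_S6 2 or 4), and the highest adjusted p of these 4 calls in such fits was 0.0894. Over all 33 alternatives the adjusted p reached 0.22 for Per1, 0.129 for Per3, 0.137 for Npas2 and 0.107 for Dbp in WT. In CnB1KO it reached 0.241 for Per1 and 0.0645 for Npas2 and for Dbp. Clock itself, a target described for Cirbp, had 0.04 in WT (adjusted p = 0.85) and -0.04 in CnB1KO (adjusted p = 0.933), and Per2 had 0.23 and 0.10 without passing. Of 17 genes of the poly(A) site machinery, 20 relatives among glycine-rich and hnRNP proteins and 11 measured receptors and stress partners of Cirbp, 0 passed with deprivation in either genotype by edgeR. At an unadjusted p under 0.05 these lists held 1, 1 and 1 genes in WT and 0, 3 and 2 in CnB1KO, and DESeq2 called 1 relative in WT. Averaged over genotypes Tra2a, a splicing regulator gene among the relatives, rose 1.12-fold (0.17, SE 0.04, adjusted p = 0.0159), and with the oligodendrocyte score as covariate it was 0.15 (adjusted p = 0.122).

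**Figure D5:**
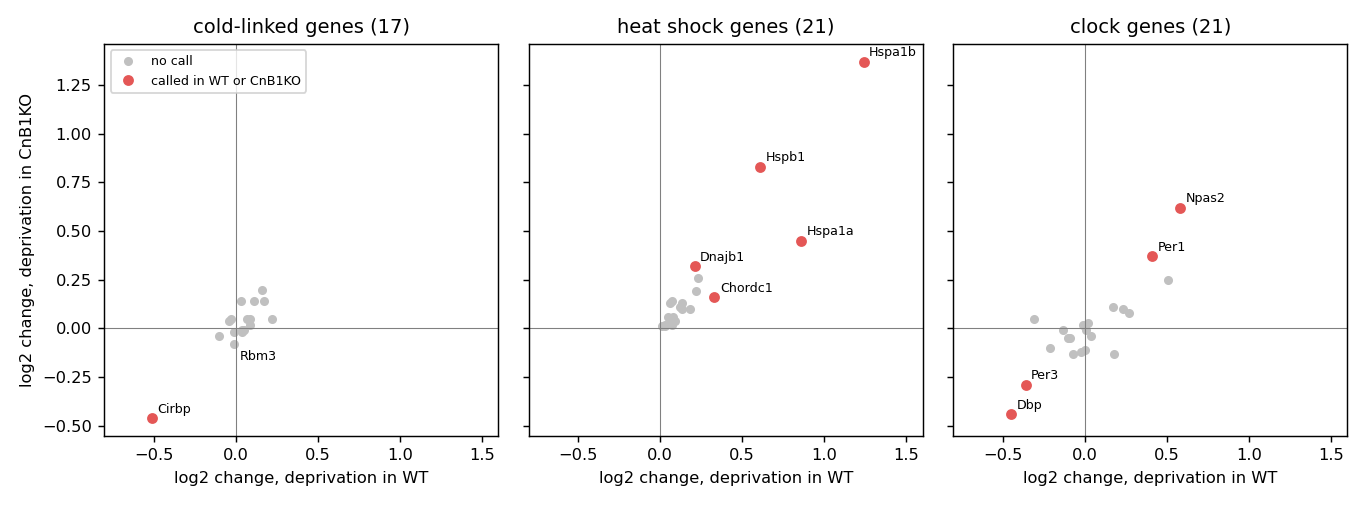
Log2 change with deprivation in CnB1KO (y axis) against that in WT (x axis) for 17 cold-linked, 21 heat shock and 21 clock genes, with genes that passed in at least 1 genotype in red. Cirbp is at -0.51 and -0.46 on the first panel, Rbm3 at -0.01 and -0.08, and Hspa1b is at 1.24 and 1.37 on the second.

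Some markers of other cells passed with deprivation. Of all genes, 0.367% passed as lower and 0.775% as higher in WT, and 0.228% and 0.464% in CnB1KO. Opalin, of mature oligodendrocytes, fell 2.43-fold in WT and 1.83-fold in CnB1KO, and Aspa, of the same cells, 1.6-fold in WT (-0.25 in CnB1KO, adjusted p = 0.591), in a list of 12 where the others did not pass. The oligodendrocyte score averaged 7.24 ± 0.09 (SD, n = 4) for WT_S6 and 6.95 ± 0.11 (SD, n = 5) for WT_SD6, against 7.33 ± 0.19 (SD, n = 5) and 7.22 ± 0.14 (SD, n = 5) for the matching knockout groups. With that score as covariate the fall of Cirbp was -0.52 in WT (adjusted p = 0.019) and -0.46 in CnB1KO (adjusted p = 0.00291). The astrocyte gene Gjb6 rose 1.36-fold and 1.32-fold, and the microglia gene Cx3cr1 had -0.38 in WT (adjusted p = 0.0472) and -0.12 in CnB1KO (adjusted p = 0.775). Its call in WT held in only 4 of the 19 fits that leave out 1 library, with an adjusted p of up to 0.186, and that of Aspa in 15 (not without WT_S6 1, 2 or 3 or WT_SD6 9). At an unadjusted p under 0.05 there were 6 of 12 microglia and 5 of 12 oligodendrocyte markers in WT, and 0 and 1 in CnB1KO. The share of all genes under that cut was not counted. These counts do not test a difference between genotypes, for which 0% of genes passed with edgeR. The microglia score averaged 4.65 ± 0.08 (SD, n = 4) for WT_S6 and 4.44 ± 0.16 (SD, n = 5) for WT_SD6, against 4.67 ± 0.07 (SD, n = 5) and 4.66 ± 0.12 (SD, n = 5) for the knockout groups. The part of microglia markers in the deprivation changes was not tested.

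Among 13261 expressed genes with established names, the pattern of Cirbp over the 19 libraries was most like that of Snx4, which encodes a sorting nexin (Pearson's r = 0.93, and 0.64 with group means taken out). Las1l (0.87), Parn (0.86), Ankrd16 (0.85) and Hexdc (0.84) came next, and with group means taken out these had 0.50, 0.10, 0.56 and 0.69. Parn encodes a poly(A)-specific ribonuclease. Most unlike it were P4ha1, a collagen prolyl hydroxylase gene (-0.94), Slc5a3, a myo-inositol transporter gene (-0.92), Ncbp3, Hip1 and Mkks (each -0.90). Taking out group means left -0.36 to -0.50 for these 5. Rbm3 was most like Strn3 (0.94), a striatin gene, and Dpysl4, Mphosph9, Tmem201 and Mamld1 (each 0.93), and most unlike Galnt10 and Fuca2 (each -0.90) and Slc45a4, Plcl1 and Tmem44 (each -0.89). Here the values without group means were 0.88 to 0.94 and -0.81 to -0.86. These are descriptions over 19 libraries that share depth and scaling. The neighbour Midn had 79.1 to 96.8 CPM and Wdr13 148.5 to 171.4 CPM, and neither passed in any of the 7 comparisons.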

How the data were processed

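Poly(A) RNA of dissected locus coeruleus was sequenced in 19 libraries. Read counts per gene were deposited by the authors as 1 raw table. FPKM values were deposited by the authors in 4 tables, 1 per group. Per the submitters' processing notes the build was GRCm38 and the tools included HTSeq 2.0.4, StringTie 2.2.1, SAMtools 1.6, Picard 2.18.29, Trim Galore 0.6.10 and FastQC 0.12.1, with no role given for any of them. The 19 TPM columns were not used.

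Counts were tested with edgeR 4.0.16 (TMM, quasi-likelihood F test, all groups in 1 fit with 15 residual degrees of freedom, R 4.3.3). FPKM were tested with limma 3.58.1 as log2(FPKM + 1) for genes with a mean of at least 1, so fold changes of low genes are understated. The quotient of CPM and FPKM was tested likewise for genes with a mean count of at least 50. P-values were adjusted by Benjamini-Hochberg over all genes tested. The edgeR filter on low counts kept all 14443 genes, and each has at least 381 counts in total. Single values were tested by permutation (100000 resamples where not exact, scipy 1.17.1).

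The members and gene lists were chosen with earlier results of these data known. Named genes are the members, Ppp3r1, list members that passed with deprivation, 10 preset list genes, neighbours, and the 5 genes most and least correlated with each member. The alternatives were other scalings, filters, pseudocounts, covariates, DESeq2 1.42.0, limma voom and leaving out each library. The quotient and all its alternatives, and the covariate and left-out libraries for FPKM, were chosen after seeing the data. The edgeR fit and the limma fit of the quotient were run on simulated data with changes set in WT_SD6 only. These data had the same spread setting for every gene and no variation in cell content, and FPKM were not simulated. The column names carry library numbers, and these are used here to name libraries. Promoter sequence is from RefSeq (GRCm38.p6) and gene positions from GENCODE M21.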

Additional observations from a re-analysis of the deposited data

Results flagged for a closer look

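In 28 groups of libraries examined for 1 value far from the rest, 3 held one, all for Rbm3, and chance gives about 1 in 20. Rbm3 was 48.1 CPM in CnB1KO_SD6 library 16, where the other libraries of the group had 37.3 to 38.2 CPM. It was 41.0 FPKM in CnB1KO_S6 library 14, against 35.0 to 35.7 FPKM in the others. These libraries have the highest granule cell score of their groups, 7.23 and 7.10, and the part of that score in the values was not tested. The Rbm3 quotient of CPM and FPKM was 1.08 kilobases in CnB1KO_S6 library 12, against 1.15 to 1.17 kilobases in the others.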

How the results depend on the processing

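The fall of Cirbp with deprivation passed under 33 of 33 alternatives in each genotype, at -0.53 to -0.48 in WT and -0.49 to -0.39 in CnB1KO. Its averaged genotype difference lost its call with the oligodendrocyte score as covariate (-0.24), with unfiltered FPKM (-0.23), and by FPKM with the granule cell score (-0.24). Without 1 library it was -0.27 to -0.22 by counts, passing in 18 of 19 such fits, and -0.25 to -0.21 by FPKM, passing in 12 (adjusted p up to 0.0933, lost without WT_S6 2, 3 or 4, WT_SD6 9, CnB1KO_S6 12 or 15 or CnB1KO_SD6 19). The averaged genotype difference of Rbm3 gained a call with library totals only (-0.3), a mean CPM of at least 10 (-0.3), DESeq2 (-0.3), FPKM (-0.44), a pseudocount of 0.1 (-0.45) and unfiltered FPKM (-0.44), and was -0.33 to -0.26 without 1 library. In 22 of its 32 alternatives this genotype difference had no call, with an adjusted p of up to 0.692. The averaged deprivation change of Rbm3 is given next. Its averaged deprivation change gained one by FPKM (-0.35), with a pseudocount of 0.1 (-0.36) and unfiltered (-0.35). With the granule cell score Rbm3 FPKM passed in WT (-0.35), in CnB1KO (-0.3) and between genotypes after sleep (-0.38). Without 1 library Rbm3 FPKM was -0.42 to -0.29 in WT and -0.49 to -0.37 between genotypes after deprivation. The Rbm3 quotient in WT was 0.34 and lost its call with libraries centred on their medians. Without 1 library it was 0.32 to 0.37 in WT and 0.25 to 0.29 in CnB1KO, where it passed without WT_SD6 library 10.

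Values near 0 changed sign. The difference of the Rbm3 response was 0.03 with the oligodendrocyte score and 0.02 by FPKM in 3 settings, and without 1 library -0.15 to 0.01 by counts and -0.04 to 0.08 by FPKM. The Rbm3 count change in WT was -0.09 to 0.07 without 1 library. The Cirbp quotient after sleep was 0.0 when centred and -0.01 to 0.01 without 1 library. With the oligodendrocyte score Per2 was -0.06 in WT and -0.01 in CnB1KO, Rtn3 0.07 and 0.04, and Srsf5 0.02 in CnB1KO. Hspa8 was -0.01 in CnB1KO with the granule cell score. By FPKM Hnrnph1 was -0.09 in WT and Clk4 0.0 in CnB1KO. Without 1 library, in WT and CnB1KO, Hsp90aa1 was -0.03 to 0.07 and -0.03 to 0.15, Hspa8 -0.03 to 0.07 and -0.06 to 0.16, and Srsf5 -0.02 to 0.08 and -0.05 to 0.06. In CnB1KO Per2 was -0.03 to 0.17 and Rtn3 -0.09 to 0.07. Over the 25 other named genes 1421 of 1544 alternatives kept direction and call, 84 lost a call, 10 gained one and 29 changed sign.

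The 165 genes that passed in WT became 49, 271 and 400 with the oligodendrocyte, noradrenergic and granule cell scores, 35 with the compared libraries only, 57 by FPKM, 60 with a pseudocount of 0.1, 35 unfiltered, and 78 to 176 without 1 library. The 100 in CnB1KO became 165 and 166 with the noradrenergic and granule cell scores, 160 with DESeq2, 52 by unfiltered FPKM, and 54 to 134 without 1 library. The change of the ratio of Cirbp to Rbm3 in CnB1KO lost its call by FPKM (-0.05) and with thinned counts (-0.33). Without 1 library that change was -0.41 to -0.32. Its exact permutation adjusted p was then 0.0635, the smallest that 4 against 5 libraries allow here, so these fits could not keep the call. After sleep the ratio differed by 0.18 by FPKM and by -0.07 to 0.02 without 1 library. Their correlation was 0.42 over S6 with group means removed and 0.66 over SD6 by FPKM. The causes were not tested. No paired analysis was possible because the count columns carry running library numbers that share no number between groups. Rbm3 had 161 to 397 counts per library, for a counting error of 5.02 to 7.88%, against 4.26 to 6.23% for Cirbp.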
